A study of Mus musculus with 8 samples.

Results

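The transcripts that encode the m6A writers were examined for N6-methyladenosine (m6A) of their own in mouse primary vascular smooth muscle cells (VSMCs), which form the middle layer of the artery wall and set its tone by contracting. The set was chosen by name and consisted of 9 genes, Mettl3, Mettl14, Mettl16, Wtap, Virma, Zc3h13, Rbm15, Rbm15b and Cbll1, out of 55450 annotated genes. A member's signal was any peak summit that fell in an annotated exon of the gene. By this definition the members held 102 summits. The shCTR lists contributed 27 of 11158 (A) and 19 of 8655 (B), and the shMettl14 lists 32 of 13675 (A) and 24 of 9256 (B). Below, each pair of values for a group is given with replicate A before replicate B.

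The VSMCs came from the descending aorta of young adult C57BL/6J mice and were transduced with lentivirus that expressed a short hairpin RNA. In the shCTR group the hairpin was nontargeting (directed at a plant microRNA sequence, from a vector that also carries GFP), and in the shMettl14 group it was directed at Mettl14. Total RNA was cut into short fragments, and m6A-RIP-seq was performed, in which an anti-m6A antibody pulls down the methylated fragments (IP) that are then compared with the fragments before pulldown (input). Each shRNA had replicates A and B of IP and of input, and the authors called peaks separately in every IP sample, which gave 4 lists. All groups shared the strain, the culture and lentiviral delivery, and the study names a single Mettl14 hairpin, shMettl14-2, for its m6A profiles, so that effects of 1 hairpin sequence cannot be told apart from those of Mettl14 loss. No source states that the replicates came from separate animals or cultures. Every p-value, except those of Fisher's exact test, therefore measures only the spread between these samples, which may be technical.

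m6A is placed on messenger RNA in the nucleus by a complex with a catalytic heterodimer, in which METTL3 carries the active site and METTL14 helps to bind the RNA. WTAP holds the heterodimer in nuclear speckles, VIRMA acts as a large scaffold, ZC3H13 and the E3 ligase-like protein CBLL1 (HAKAI) help to assemble and anchor the complex, and RBM15 and RBM15B are RNA-binding proteins that direct it to particular transcripts. METTL16 is a separate methyltransferase that acts on few RNAs, among them the transcript of the enzyme that makes the methyl donor S-adenosylmethionine. The mark is typically found at DRACH sequences (D stands for any base but C, R for a purine and H for any base but G, and the A is the base that is methylated), in long internal exons and near stop codons.

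Peaks were called on the transcripts of the regulatory and RNA-binding subunits and not on those of the methyltransferases. None of the 3 methyltransferase transcripts, Mettl3, Mettl14 and Mettl16, had a peak in any list, whereas all 6 others (Wtap, Virma, Zc3h13, Rbm15, Rbm15b and Cbll1) had an exonic summit in all 4 lists. Over all genes with a complete coding transcript, 3475 of 21606 (16.1%) had an exonic summit in all 4 lists. By the mean over the lists Rbm15 had the most summits and the highest-ranked summit, followed in rank by Rbm15b. No region of a writer transcript passed the test for a change after Mettl14 knockdown, and neither did any of the 4929 regions tested over all genes.

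The recurrent sites of the 6 transcripts are shown first, since the rest of the results refer to them. Member summits of the 4 lists that lay within 100 bp of each other were chained into sites, numbered along the chromosome within each gene. There were 34 sites, of which 12 had a summit in all 4 lists, 8 in 3 lists, 8 in 2 lists and 6 in 1 list. The sequences below are windows of the transcript, reaching 50 nt to each side of the middle of the summits, at 9 of the 12 recurrent sites. They are all 3 recurrent sites of Rbm15, the Rbm15b sites that held its strongest summit in at least 1 list (sites 1, 5 and 7), and a recurrent coding site of Virma, Wtap and Zc3h13. They are written 5′ to 3′ from GENCODE M21 transcripts on GRCm38, with every DRACH match in capitals.

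Rbm15 site 1 (chr3:107330321-107330421, minus strand, exon 1): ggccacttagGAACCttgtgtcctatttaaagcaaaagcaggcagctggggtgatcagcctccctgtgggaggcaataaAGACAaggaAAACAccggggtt

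Rbm15 site 3 (chr3:107331330-107331430, minus strand, exon 1): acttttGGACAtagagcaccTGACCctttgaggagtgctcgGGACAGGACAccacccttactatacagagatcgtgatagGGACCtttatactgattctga

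Rbm15 site 5 (chr3:107331944-107332044, minus strand, exon 1): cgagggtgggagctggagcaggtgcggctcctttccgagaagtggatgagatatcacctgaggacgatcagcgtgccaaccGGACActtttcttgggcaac

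Rbm15b site 1 (chr9:106884352-106884452, minus strand, exon 1): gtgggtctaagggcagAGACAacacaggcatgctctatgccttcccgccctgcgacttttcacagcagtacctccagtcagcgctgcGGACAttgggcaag

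Rbm15b site 5 (chr9:106885231-106885331, minus strand, exon 1): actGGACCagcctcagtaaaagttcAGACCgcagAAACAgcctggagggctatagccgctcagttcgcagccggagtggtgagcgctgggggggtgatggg

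Rbm15b site 7 (chr9:106886002-106886102, minus strand, exon 1): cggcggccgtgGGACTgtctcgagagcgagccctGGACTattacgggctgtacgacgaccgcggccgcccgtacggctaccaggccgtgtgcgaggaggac

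Virma site 4 (chr4:11526697-11526797, plus strand, exon 14): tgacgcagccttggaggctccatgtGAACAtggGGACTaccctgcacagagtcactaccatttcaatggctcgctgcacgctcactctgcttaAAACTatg

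Wtap site 1 (chr17:12967712-12967812, minus strand, exon 8): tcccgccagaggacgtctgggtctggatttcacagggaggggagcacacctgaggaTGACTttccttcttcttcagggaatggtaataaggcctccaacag

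Zc3h13 site 7 (chr14:75331890-75331990, plus strand, exon 15): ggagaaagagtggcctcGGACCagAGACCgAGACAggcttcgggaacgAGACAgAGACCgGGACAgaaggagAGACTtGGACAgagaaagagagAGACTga

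Each window held at least 1 DRACH match, from 1 in Rbm15 site 5 and Wtap site 1 to 9 in Zc3h13 site 7, which lies in a repetitive stretch. GGACT, the form of DRACH most often cited for METTL3 and METTL14, was present in Rbm15b site 7, which held 2 copies, and in Virma site 4. A match describes the sequence and does not show which adenosine was methylated.

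The catalytic subunit Mettl3 (ENSMUSG00000022160.18, chr14:52294841-52305128, minus strand), its partner Mettl14 (ENSMUSG00000028114.16, chr3:123368297-123386108, minus strand) and Mettl16 (ENSMUSG00000010554.14, chr11:74770830-74828525, plus strand) had 0 exonic summits, 0 summits elsewhere in the gene and 0 overlapping intervals in each of the 4 lists. The deposited overlap intervals of both shRNA groups also held none of these genes. The chosen coding transcripts held 38 DRACH matches in 2025 nt for Mettl3, 70 in 2741 nt for Mettl14 and 32 in 2073 nt for Mettl16. These are 18.8, 25.5 and 15.4 matches per kb, against 19.7 (Rbm15b) to 24.3 (Wtap) in the 6 transcripts with peaks and a median of 20.4 over all genes with a complete coding transcript. A peak call requires both methylation and enough RNA, and a peak list does not give a transcript level. An absent peak therefore cannot be told apart from a transcript of low level, and the Mettl14 knockdown could not be verified from the peaks. In the shMettl14 lists the hairpin targets the Mettl14 transcript itself, so its absence there does not bear on its methylation. The study reported reduced Mettl14 by qRT-PCR and Western blot. It also performed mRNA-seq, which was not used here.

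The length of the longest exon was set beside the presence of peaks. The longest exon was 405 nt in Mettl3, 736 nt in Mettl16 and 1394 nt in Mettl14, against 1141 nt in Virma, 1191 nt in Zc3h13, 1256 nt in Wtap, 3379 nt in Cbll1, 3459 nt in Rbm15 and 6511 nt in Rbm15b, which has a single exon. The median over all genes with a complete coding transcript was 1206 nt. Of 10810 genes with a longest exon of at least this length 25.4% had a summit in all 4 lists, and of 10796 genes with a shorter one 6.72%. Virma and Zc3h13 are on the short side of that division and had peaks, and Mettl14 is on the long side and had none.

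**Figure D1:**
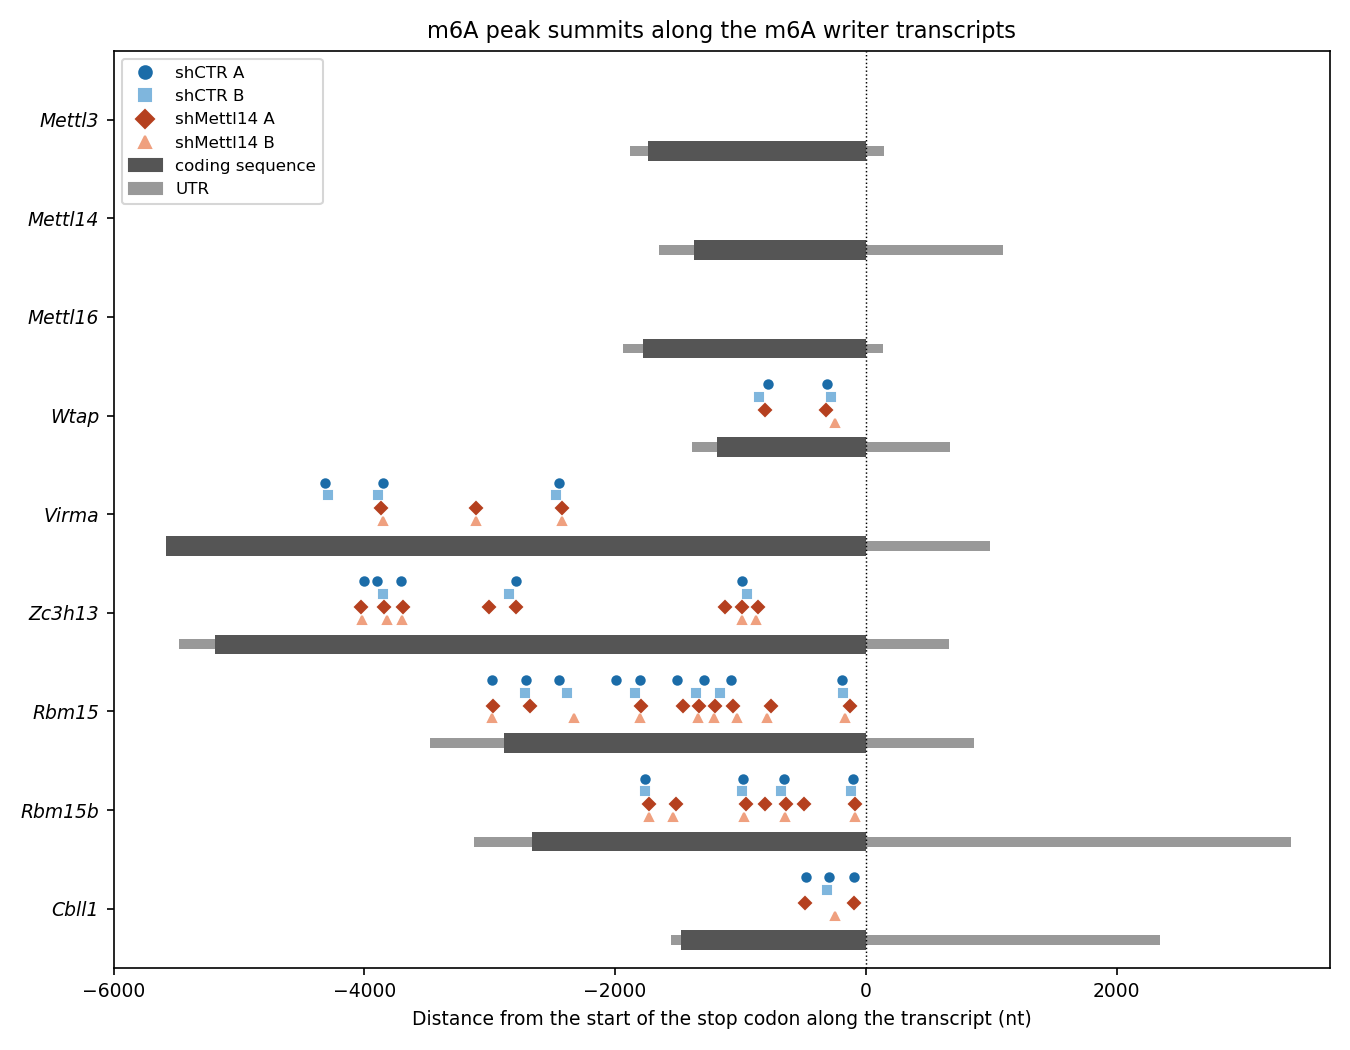
Position of every member summit that lies in the chosen coding transcript, in nt from the start of the stop codon (x axis), for the 9 writer genes (rows); each marker is 1 summit of 1 list, and the bar below shows the coding sequence and the UTRs to scale. Mettl3, Mettl14 and Mettl16 have no marker, 96 of the 99 markers lie over coding sequence, and 3 lie in the 5′ UTR of Rbm15.

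Rbm15 (ENSMUSG00000048109.10, chr3:107325421-107333673, minus strand) encodes an RNA-binding adaptor with a SPOC domain that recruits the complex. It had 9 and 6 summits in shCTR against 9 and 8 in shMettl14, all in its 3459-nt first exon. The mean of 8 summits per list placed it at percentile 98.2 among the 3475 genes with a summit in all 4 lists, whose median was 1.75. The sites spanned the coding sequence, from the 5′ UTR (site 9, −2985 to −2971 nt from the stop codon) to the stop-proximal site 1.

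The stop-proximal Rbm15 site 1, at −194 to −128 nt, held 32 and 37 fragments at its summit in shCTR and 22 and 32 in shMettl14. Here the pileup is the number of overlapping IP fragments, recovered from the deposited values. Its fold enrichment over the local background was 20.7 and 24.3 in shCTR against 13.1 and 20.4 in shMettl14. Because each list has its own depth and background, fold enrichments were placed as percentiles among all summits of the same list, and site 1 stood at 97.7, 98.9, 89.0 and 97.0 in that order. Both shCTR lists were above both shMettl14 lists, and shMettl14 A was the lowest. Lists of unequal length do not share 1 percentile scale, so percentiles were also taken among the 8655 summits with the highest −log10 p of each list. On that scale site 1 stood at 97.0 and 98.9 in shCTR against 82.7 and 96.8 in shMettl14, in the same order of groups. By percentile of pileup the groups overlapped, at 82.1 and 86.3 against 73.9 and 89.5, and shMettl14 B was the highest.

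Site 5 of Rbm15, at −1842 to −1796 nt, had the opposite order. It stood at percentile 56.2 and 89.1 in shCTR against 96.3 and 92.8 in shMettl14, and both shMettl14 lists were above both shCTR lists, also among equal numbers of top summits (44.5 and 89.1 against 94.2 and 92.3). The pileup itself did not separate the groups, with 25 and 30 fragments in shCTR and 32 and 25 in shMettl14, whereas its percentile within each list did, at 72.0 and 79.6 against 88.1 and 81.6, and the recovered background was 2.103 and 1.05 against 0.948 and 0.556. Site 3, a run of 10 summits at −1351 to −1024 nt, held 29, 28, 28 and 26 fragments in the 4 lists (shCTR A, shCTR B, shMettl14 A, shMettl14 B). Its mean percentile went from 83.2 ± 0.59 to 88.1 ± 1.73 (SD, n = 2 each). The groups lay 4.84 points apart, beyond the SD of either, with an exact two-sided permutation p of 0.333. Among equal numbers of top summits the groups overlapped, at 78.2 and 83.6 in shCTR against 83.1 and 85.9 in shMettl14, and by percentile of pileup they did not, at 78.4 and 76.8 against 84.1 and 83.0. With 4 lists there are 3 splits into pairs, so 0.333 is the smallest p that any such test can give.

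Rbm15b (ENSMUSG00000074102.4, chr9:106880918-106887428, minus strand) encodes a paralogue of RBM15 with the same adaptor role. It had 4 and 4 summits in shCTR against 7 and 5 in shMettl14, and 4 sites were found in all lists, all in the coding sequence although the 3′ UTR is the longest part of the transcript (3386 nt). In each list the highest pileup of any writer transcript was at Rbm15b site 3 (−676 to −637 nt), where there were 65 and 60 fragments in shCTR against 49 and 46 in shMettl14.

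The same order of groups held at the other 3 recurrent Rbm15b sites. Site 1 near the stop codon (−117 to −86 nt) held 42 and 46 fragments in shCTR and 37 and 32 in shMettl14, site 5 (−991 to −957 nt) held 55 and 59 against 47 and 34, and site 7 (−1765 to −1728 nt) held 46 and 52 against 36 and 36. The pileups are not corrected for depth, and over all summits the median pileup was 16 and 16 for shCTR and 14 and 13 for shMettl14. Such a gap, with both shCTR lists above both shMettl14 lists, was found at 2181 of 5547 chained sites with a summit in all 4 lists (39.3%) over all genes, and at 5 of the 12 of the writers. Expressed as a percentile of pileup within each list, the groups overlapped at all 4 Rbm15b sites. At site 7 the values were 92.00 and 94.06 against 91.30 and 92.01, so the overlap there was a near-tie of shCTR A with shMettl14 B. Expressed as a percentile of fold enrichment, the groups kept this order at site 7 only, at 91.9 and 92.8 in shCTR and 79.5 and 81.2 in shMettl14. The site 7 difference was −12.0 points, from 92.4 ± 0.66 to 80.3 ± 1.18 (SD, n = 2 each), with the smallest possible exact permutation p of 0.333. Among equal numbers of top summits the order held, at 89.7 and 92.8 against 67.6 and 79.9. On that scale site 5 also had this order, at 89.5 and 91.3 in shCTR against 88.7 and 83.0 in shMettl14. Site 1 stood at 74.9 and 89.6 in shCTR and 73.3 and 88.9 in shMettl14, where the replicates of a group differed more than the groups. By percentile of fold enrichment, shCTR was higher without overlap at 2 of the 12 writer sites (Rbm15 site 1 and Rbm15b site 7) and shMettl14 at 2 (Rbm15 sites 3 and 5). Over all genes the shares were 15.0% and 17.5% of the 5547 sites. By percentile of pileup the counts were 0 of 12 with shCTR higher and 2 of 12 with shMettl14 higher (Rbm15 sites 3 and 5), against 15.5% and 14.9% over all genes.

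**Figure D2:**
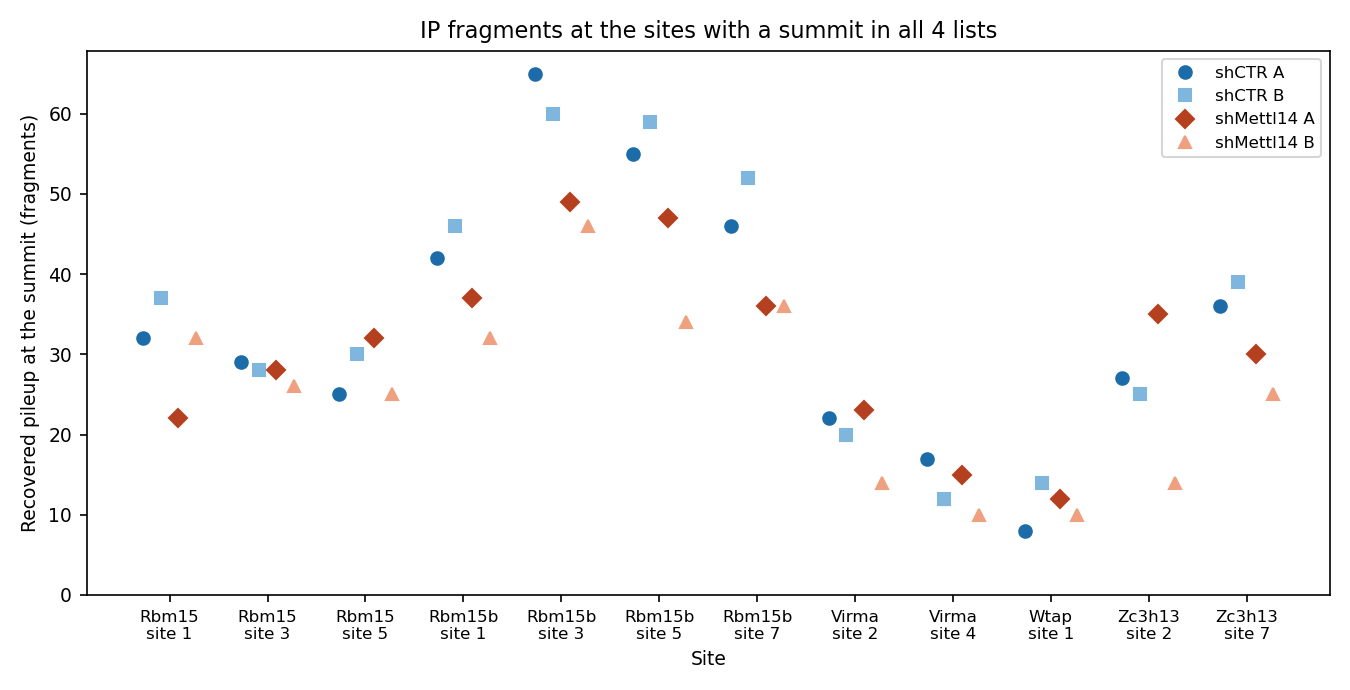
Recovered pileup, in IP fragments at the summit (y axis, from 0), at the 12 sites with a summit in all 4 lists (x axis); each marker is 1 list and the values are not corrected for depth. At each of the 4 Rbm15b sites both shCTR markers lie above both shMettl14 markers, from 65 and 60 against 49 and 46 at site 3 to 46 and 52 against 36 and 36 at site 7, as they do at 39.3% of all such sites.

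Wtap (ENSMUSG00000060475.13, chr17:12966796-12994169, minus strand), the nuclear anchor of the heterodimer, had 3 and 2 summits in shCTR against 3 and 2 in shMettl14. Its recurrent site 1 lay in the last exon at −314 to −243 nt and held 8, 14, 12 and 10 fragments in the same order. The strongest Wtap summit stood at percentile 57.1 and 52.5 in shCTR against 43.6 and 34.6 in shMettl14, so that both shCTR lists were higher. The difference was −15.7 points, from 54.8 ± 3.27 to 39.1 ± 6.41 (SD, n = 2 each), and exceeded the SD of both groups (exact permutation p 0.333). It does not follow 1 place in the transcript, because the strongest summit was at site 2 in both A lists and at site 1 in both B lists. At site 1 itself the percentiles were 7.39, 52.5, 42.1 and 34.6, and the groups overlapped.

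Some of the Wtap summits lay in exon sequence that the longest coding transcript lacks. At 2 sites, 3 summits (1 in shCTR A, 1 in shMettl14 A and 1 in shMettl14 B) lay outside the longest coding transcript, 85 to 568 nt past the coding end of 2 shorter annotated coding transcripts that end in another terminal exon (chr17:12972685-12975474 and chr17:12973552-12975474). These are 3′ UTR positions of the shorter transcripts. The other summits at this end of the gene (site 4, −856 to −783 nt) were found in 3 lists, with 20, 13 and 13 fragments in shCTR A, shCTR B and shMettl14 A. They also lay within the terminal exon of the shorter transcripts, so the isoforms cannot be told apart at site 4.

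Virma (ENSMUSG00000040720.15, chr4:11485958-11550684, plus strand), the scaffold, had 3 summits in each list, none within 200 nt of the stop codon. Site 2 in exon 8 (−3890 to −3848 nt) held 22, 20, 23 and 14 fragments in shCTR A, shCTR B, shMettl14 A and shMettl14 B, and site 4 in exon 14 (−2468 to −2420 nt) held 17, 12, 15 and 10. The remaining summit lay at a different site in each group. Site 1 in exon 8 was called in both shCTR lists (10 and 9 fragments), and site 3 in exon 10 (−3107 to −3106 nt) was called in both shMettl14 lists (16 and 9 fragments). Site 1 lay in the same merged region as site 2, whereas site 3 was a region of its own.

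Zc3h13 (ENSMUSG00000022000.11, chr14:75284373-75344426, plus strand), which keeps the complex in the nucleus, had 5 and 3 summits in shCTR against 8 and 5 in shMettl14, and shMettl14 B had 1 more summit of the gene outside exons. The strongest summit stood at percentile 68.0 and 78.4 in shCTR against 85.5 and 92.4 in shMettl14, with both shMettl14 lists above both shCTR lists. The difference was 15.8 points, from 73.2 ± 7.33 to 89.0 ± 4.88 (SD, n = 2 each, exact permutation p 0.333). It does not follow 1 place in the transcript, because the strongest summit was at site 3 in shMettl14 A and at site 7 in the other lists. At site 7 itself the percentiles were 68.0 and 78.4 in shCTR against 64.2 and 92.4 in shMettl14, and the groups overlapped. Among equal numbers of top summits the strongest summit also overlapped, at 59.5 and 78.4 against 77.1 and 91.9. Ranked by recovered pileup the difference of the strongest summit was −1.86 points, so the direction depended on the measure. At its site 7 in exon 15 (−991 to −857 nt) there were 36 and 39 fragments in shCTR and 30 and 25 in shMettl14, against recovered backgrounds of 2.75 and 2.34 and of 2.56 and 0.579. The exon 12 site 5 held 46, 28 and 35 fragments in shCTR A, shCTR B and shMettl14 A and was not called in shMettl14 B.

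Cbll1 (ENSMUSG00000020659.16, chr12:31484829-31499616, minus strand) had 3 and 1 summits in shCTR against 2 and 1 in shMettl14, all in its 3379-nt last exon, and none of its 3 sites was found in all 4 lists. The summits held 9 to 14 fragments. The strongest stood at percentile 75.9, 29.4, 72.5 and 53.6 in the 4 lists, and the groups overlapped. Sites 1 and 2 also lay in an exon of the antisense gene Gm29542 (plus strand). The peaks carry no strand, so the genes cannot be told apart there. Without summits shared with another gene, Cbll1 had a summit in neither B list, and 5 members in place of 6 remained in all 4 lists.

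**Figure D3:**
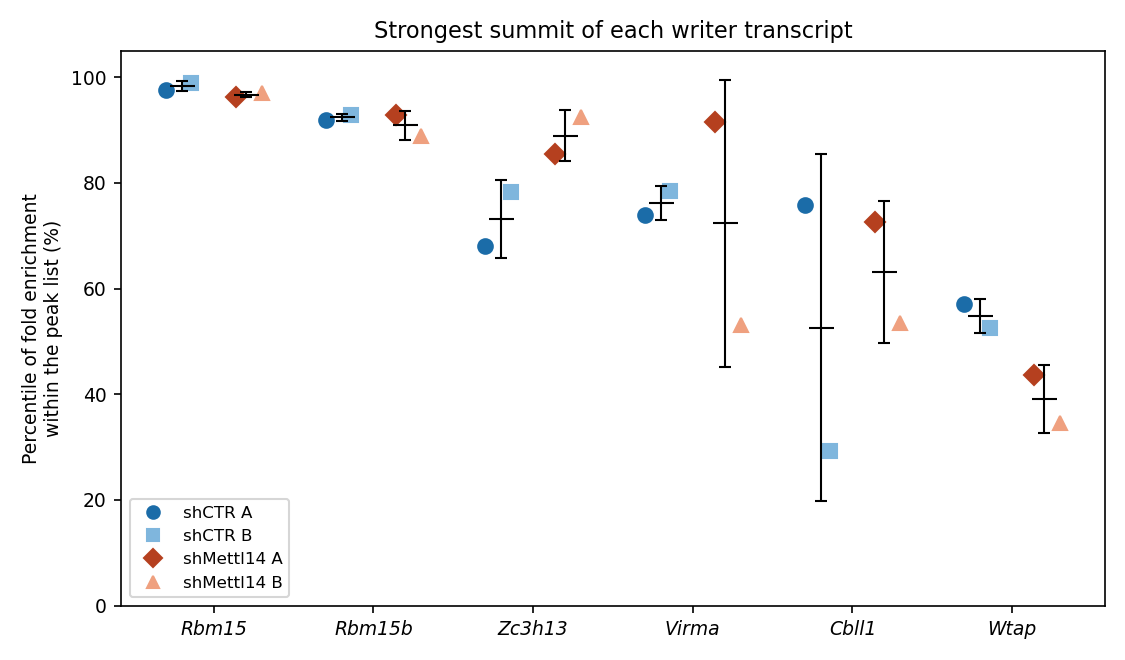
Percentile of fold enrichment within its own peak list (y axis, 0 to 100%) of the strongest summit of the 6 writer transcripts with peaks (x axis, ordered by the mean over lists); markers are lists, and black bars give mean ± SD of the 2 lists of a group. Rbm15 sits at 96.3 to 98.9 in every list. The strongest summit of each of the 6 transcripts is not at the same site in all lists, so a gap between groups here is not a change at 1 place.

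Across the 6 transcripts the strongest summit was ordered Rbm15, Rbm15b, Zc3h13, Virma, Cbll1 and Wtap by mean percentile. Rbm15 was at 96.3 to 98.9 and Rbm15b at 88.9 to 92.9, without overlap. Zc3h13 (68.0 to 92.4) and Virma (53.1 to 91.6) overlapped each other, Rbm15b and Cbll1 (29.4 to 75.9) in range, and Wtap (34.6 to 57.1) overlapped Cbll1 and Virma. In shMettl14 the mean was lower for 4 of the 6 transcripts (Wtap, Virma, Rbm15 and Rbm15b) and higher for Zc3h13 and Cbll1, and it was lower for 48.8% of the 3475 genes with a summit in all 4 lists. Without shMettl14 B it was lower for 2 of the 6, because the differences of Virma and Rbm15b turned to 15.4 and 0.49 points, and without shCTR B for 5, because that of Cbll1 turned to −12.8. The shares of the 3475 genes with a lower mean were then 38.0% and 55.9%. For Rbm15 the difference was −1.66 points, from 98.3 ± 0.90 to 96.6 ± 0.47 (SD, n = 2 each, exact permutation p 0.333), but 0.26 by −log10 p and 4.61 by pileup. The genes whose strongest summits had percentiles most like those of Rbm15 over the 4 lists were Slc35e1, Atp2b1 and Usp31, with mean absolute differences of 0.470, 0.578 and 0.580 points.

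To ask whether the number of peaks changed after knockdown, member summits were counted per list. There were 23.0 ± 5.66 summits on average with shCTR and 28.0 ± 5.66 with shMettl14 (SD, n = 2 each), 5 summits more, which was smaller than the spread between replicates (exact two-sided permutation p 0.667). Counted as distinct intervals there were 16 and 13 against 18 and 16, a difference of 2.5 that was larger than the SDs of 2.12 and 1.41 (n = 2 each), although the groups touched at 16 and the exact permutation p was again 0.667. The difference in summits was 9 without shCTR A or without shMettl14 B, and 1 without shCTR B or without shMettl14 A. Both A lists held more summits in all and more member summits than the B list of their group. As a share of all summits, the members made up 0.242% and 0.220% in shCTR and 0.234% and 0.259% in shMettl14. By gene, Virma and Wtap had equal means in both groups, Rbm15 differed by 1 and Cbll1 by −0.5. Zc3h13 went from 4 ± 1.41 to 6.5 ± 2.12 summits (SD, n = 2 each, exact permutation p 0.667), and Rbm15b from 4 ± 0 to 6 ± 1.41 (SD, n = 2 each, exact permutation p 0.333). Rbm15b was the 1 writer with more summits in both shMettl14 lists than in both shCTR lists, which held for 11.3% of the 3475 genes.

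Lists were then compared by region, made by merging overlapping intervals of the 4 lists. The members had 16 of 11361 regions, and 12 of the 16 had a peak in all 4 lists. Of all regions, 194 (1.71%) were present in both shCTR lists and neither shMettl14 list, and 0 of these lay in a writer transcript. Conversely, 203 (1.79%) were present in both shMettl14 lists and neither shCTR list, and 1 of these, the Virma exon 10 region (chr4:11519173-11519322), belonged to a writer transcript. For presence at a single region an exact permutation test over the 4 lists cannot go below 0.333, and the shMettl14 B summit there held only 9 fragments. With summits chained within 100 bp in place of merged intervals, there were 1 shCTR-only site (Virma site 1) and 3 shMettl14-only sites (Rbm15 site 2, Virma site 3 and Rbm15b site 6), against 324 (1.91%) and 627 (3.70%) of 16938 such sites over all genes.

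To test for a change in strength, each of the 4929 regions with a peak in every list was given its rank by highest fold enrichment, which was turned into a normal score and compared between shMettl14 and shCTR with limma. At an adjusted p under 0.05 there were 0 regions (0%) over all genes and 0 of the 12 writer regions. Before adjustment, 243 regions (4.93%) over all genes had a p under 0.05, and again 0 of 12. The writer regions moved both ways, with 7 higher and 5 lower in shMettl14 and a median change of 0.07 normal scores against 0.00 over all regions. The writer median was not stable, at −0.12 without shCTR A, 0.31 without shCTR B, 0.08 without shMettl14 A and 0.13 without shMettl14 B. Pileups summed over replicates and compared with Fisher's exact test gave 0 of the 12 at an adjusted p under 0.05 and 0 at an unadjusted p under 0.05, against 0 and 126 of the 4929 regions. That test covers counting error only and takes fragments as independent molecules, so it holds no information on the spread between replicates.

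**Figure D4:**
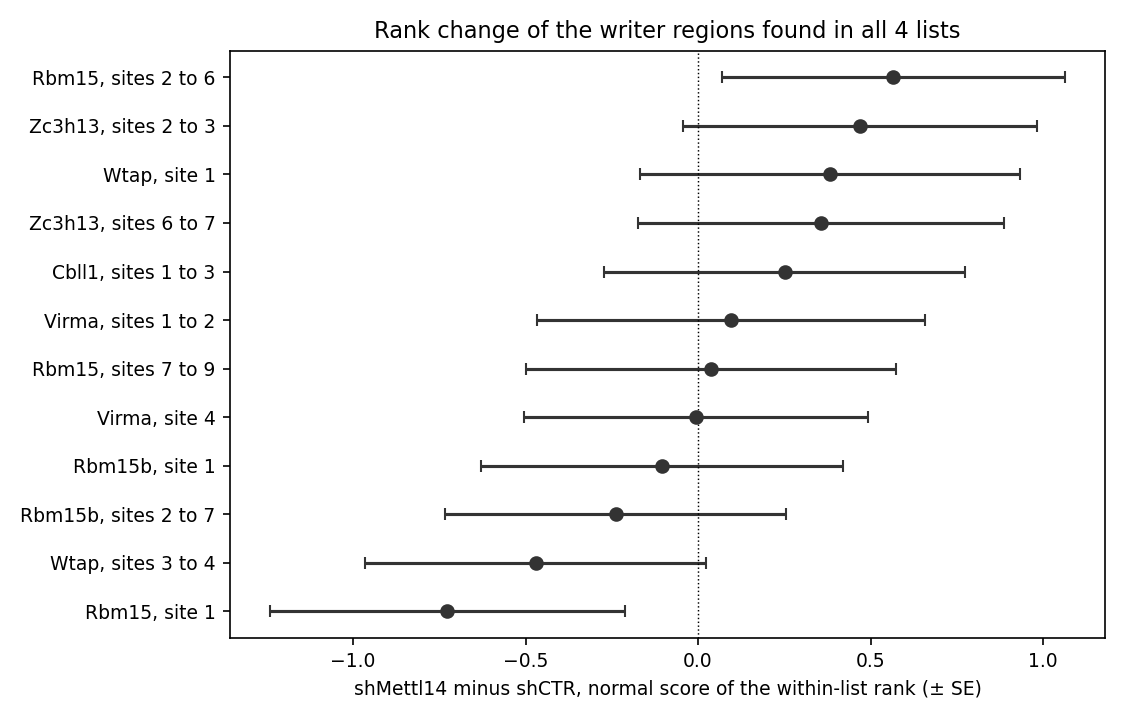
Change in normal score of the within-list rank, shMettl14 minus shCTR (x axis, point ± SE from limma, 2 lists per group), for the 12 writer regions found in all 4 lists (rows, named by the sites they contain). The changes run from −0.73 at Rbm15 site 1 to 0.57 at Rbm15 sites 2 to 6, and no region passed an adjusted p of 0.05.

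The ends of this range lay in the same exon of Rbm15. The stop-proximal region (site 1, chr3:107330133-107330550) changed by −0.73 ± 0.51 normal scores (SE, adjusted p 0.993 by limma), and the adjoining coding region (sites 2 to 6, chr3:107330807-107332342) by 0.57 ± 0.50 (SE, adjusted p 0.999 by limma). Neither change was distinguishable from the spread between replicates. Without shMettl14 A, the change of the stop-proximal region was −0.26, and without shMettl14 B it was −1.16. The change of the adjoining region was 0.32 without shCTR A, and with chained summits it was 0.21 at one of its recurrent sites and 1.04 at the other. A loss of m6A that is uniform over all sites would not alter the ranks and is not visible here.

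The position of the writer summits within transcripts, which the choice of genes did not use, was set beside that of all summits. In the chosen coding transcripts, 96 of 99 member summits lay in coding sequence, 3 in the 5′ UTR (all of Rbm15) and 0 in the 3′ UTR. The 99 summits form 32 sites, and a count of 0 of 32 sites allows a share of up to 9.38%, for counting error only. The 3 Wtap summits in the 3′ UTR of shorter transcripts are not among them. Over all summits in such transcripts, 65.7% to 67.5% lay in coding sequence and 29.6% to 32.0% in the 3′ UTR. The absence from the 3′ UTR included Rbm15b and Cbll1, whose 3′ UTRs of 3386 and 2343 nt are longer than their coding sequences of 2661 and 1473 nt. Repeated calls of 1 site in several lists are not independent, so no test was made over summits.

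Of the member summits, 11.5% and 10.5% in shCTR and 9.68% and 8.70% in shMettl14 fell no more than 200 nt from the stop codon of the chosen transcript. The share over all summits was 26.8%, 26.8%, 25.4% and 27.1% in the same lists, higher than that of the members in each. The 10 member summits near such a stop codon belonged to Rbm15 (4), Rbm15b (4) and Cbll1 (2), and none to Wtap, Virma or Zc3h13. Stop codons of other isoforms were not used. The Wtap site 3 summit of shMettl14 B, for example, lay 85 nt past the coding end of the shorter Wtap transcripts. Between groups the member share differed by −1.85 percentage points, from 11.0% ± 0.72 to 9.19% ± 0.69 (SD, n = 2 each, exact two-sided permutation p 0.333). The direction was not stable, because within 100 nt the difference was 3.48 points and with interval midpoints 1.13 points, whereas within 400 nt it was −4.99 points (19.2% and 21.1% against 12.9% and 17.4%). The exons under the member summits were long, with a median of 3419 to 3459 nt per list against 2065 to 2118 nt over all summits. This median rests on Rbm15b, Rbm15 and Cbll1 (6511, 3459 and 3379 nt), which held 59 of the 99 summits, whereas the medians of Wtap, Virma and Zc3h13 (1256, 843 and 601 nt) were below that of all summits.

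The motif content of the writer summits was compared in the same way. DRACH lay within 50 nt of 88.5% and 100% of member summits in shCTR and 96.8% and 95.7% in shMettl14, against 95.9%, 96.2%, 94.9% and 96.1% of all summits. Within 25 nt it lay near 80.8% and 84.2% of member summits in shCTR against 64.5% and 65.2% in shMettl14, and the groups did not overlap. This difference was −17.6 percentage points, from 82.5% ± 2.43 to 64.9% ± 0.50 (SD, n = 2 each, exact two-sided permutation p 0.333), while the share over all summits was 80.5% and 81.4% against 78.7% and 80.7%. GGACT lay within 50 nt of 19.2%, 21.1%, 16.1% and 26.1% of member summits and 22.0%, 23.6%, 19.7% and 22.2% of all summits. The summits near GGACT were 6 of 12 in Virma, 6 of 20 in Rbm15b, 4 of 21 in Zc3h13 and 4 of 32 in Rbm15, and 0 of 7 in both Wtap and Cbll1. Both motifs were read on the transcript strand, and every GGACT is also a DRACH.

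Other genes of the pathway were counted in the same way. Of 13 m6A readers and erasers, 4 had an exonic summit in all 4 lists, Ythdf1, Ythdf2, Ythdf3 and Ythdc1, all readers with a YTH domain, and 7 had none in any list. The strongest summits of Ythdf3, which encodes a cytoplasmic reader, stood at percentiles 99.4, 91.5, 91.3 and 96.9 in shCTR A, shCTR B, shMettl14 A and shMettl14 B. Of 5 other m6A or m6Am methyltransferases and their cofactors, 0 had a summit in all 4 lists and 3 had none in any list. Of 3 genes that supply S-adenosylmethionine, 0 had a summit in all 4 lists, and 2 (Mat2b and Ahcy) had none in any list.

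The labelled cell type could be checked only through peaks. Of 8 smooth muscle markers, Lmod1 (40 to 62 fragments at its strongest summit) and Cald1 (28 to 77 fragments) had summits in all 4 lists. Acta2, Tagln, Cnn1, Smtn and Myocd had none, and Myh11 had summits in all lists but shMettl14 B. Of 5 endothelial markers, Pecam1 (24 to 33 fragments at its strongest summit) and Cdh5 (46 to 109 fragments) had summits in all 4 lists. Tie1 and Tek had none, and Kdr had summits in all lists but shMettl14 B. Of 4 leukocyte markers, 0 had a summit in all 4 lists. The share over all genes with a complete coding transcript was 16.1%. Per the study's methods the adventitia was digested away and the endothelium scraped off before the aortas were plated. A methylated transcript is not an abundant one, and in bulk RNA fewer cells of a type cannot be told apart from less RNA per cell. The part of other cell types in the writer peaks was not tested.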

How the data were processed

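VSMCs transduced with shCTR or shMettl14 were profiled by m6A-RIP-seq (IP and input, replicates A and B). Reads were aligned by the authors to mm10 (GRCm38), and unique reads were kept with SAMtools. Submitters' notes list STAR. MACS2 called peaks of each IP against its own input, with version and options not given in the sources used here. Each deposited list gives fold enrichment (a ratio to local background), −log10 p- and q-values by the authors, and summit offsets. The deposited overlap files give intervals only, for both replicates of a group. Input samples entered only as background, and the lists do not give the number of reads behind the calls.

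Pileup and background were recovered from the fold enrichment, to which MACS2 adds a pseudocount of 1, and the Poisson −log10 p (100% of summits matched within 0.001). Peak ends lay within GRCm38 lengths on 21 of 21 chromosomes. Summits were placed with GENCODE M21, using the transcript with the longest coding sequence of each gene. An interval with several summits counts once per summit. Percentiles are ranks of fold enrichment among all summits of a list. Regions (overlap of at least 1 bp) were compared in R 4.3.3 by limma 3.58.1 (two-sided moderated test of lmFit and eBayes, Benjamini-Hochberg over all regions), tested on simulated data first. Exact permutation tests were run over lists. Python 3.11.15, pandas 2.3.3, numpy 2.4.6 and scipy 1.17.1 were used.

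The members, gene lists and tests were chosen with earlier results of these data known. All 9 members are named, with the gene of each pathway list that had a summit in all 4 lists and the highest mean percentile (only the readers and erasers had one), and the 3 genes most like Rbm15. The other genes named in counts were chosen after their values were seen. Alternatives covered the summit rule, a −log10 q of at least 5, equal numbers of top summits, other ranks, windows and region definitions, and each list left out. Leaving out summits shared with another gene and taking percentiles among equal numbers of top summits were added after seeing the data.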

Additional observations from a re-analysis of the deposited data

How the results depend on the processing

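Single sites rest on few fragments and few lists. The median summit held 13 to 16 fragments over all summits of a list and 15 to 27 over member summits, and each group has 2 lists. Of 114 recomputed values, 98 kept their direction or stayed within 1.5 times or 1 SD. This tally is no measure of stability. Some values could hardly differ, such as the strongest summit under a stricter q or the members in all lists with 1 list left out. A kept direction also covers large changes in size, such as a difference of 1 or 9 member summits against 5. The members with a summit in all 4 lists numbered 5 with equal top summits (Wtap was lost) or without shared summits (Cbll1 was lost), and 6 otherwise. The strongest summit was lower in shMettl14 for 4 transcripts, and for 2 to 5 when 1 list was left out, 2 being without shMettl14 B. Over the 3475 genes with a summit in all 4 lists the share was 48.8%, and 38.0% to 55.9% with a list left out, also lowest without shMettl14 B. Regions in 1 group only numbered 1, but 4 with chained summits, 2 with equal top summits and 1 to 2 with a list left out (2 without shCTR A, shCTR B or shMettl14 A). Over all genes, regions in shCTR only and in shMettl14 only numbered 194 and 203, but 324 and 627 of 16938 with chained summits, 342 and 97 of 9387 with equal top summits, and 343 to 1254 and 387 to 1582 with a list left out. The stop codon difference of −1.85 points became −4.99 points within 400 nt and turned to 3.48 points within 100 nt and 1.13 points with midpoints. The mean share of member summits near DRACH was 95.2%, and 73.7% within 25 nt, a mean over groups that did not overlap.

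The strongest summit changed direction for Virma (1.13 by pileup, −23.1 to 15.4 with a list left out, 15.4 without shMettl14 B), Zc3h13 (−1.86 by pileup), Rbm15 (0.26 by −log10 p, 4.61 by pileup), Rbm15b (−3.49 to 0.49 with a list left out, 0.49 without shMettl14 B) and Cbll1 (−12.8 to 33.7 with a list left out, −12.8 without shCTR B). The causes were not tested. With percentiles among equal numbers of top summits 3 transcripts in place of 4 were lower, since Wtap had no value, and the other 5 kept their direction. With the replicate letter as a replicate block, 0 writer regions passed an adjusted p of 0.05 by limma, as without it, and 292 regions over all genes against 243 had an unadjusted p under 0.05. The A minus B differences of the groups correlated at 0.0795 across regions, and the labels do not say that the letters pair the samples, so no pairing was used. Of the 34 writer sites, 4 were called in both A lists only and 0 in both B lists only, and the median SE over all regions was 0.476 with the block and 0.508 without. Each list left out also gave 0 writer regions, and 3 regions of other genes passed without shMettl14 A. These fits leave 1 list in a group, which is assumed to vary like the other group, so the 0 is no sign of stability.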
